A study of Mus musculus with 1 sample.

Results

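The droplets described here are the 1908 barcodes of the gene expression matrix that held 200 to 1330 UMIs in total, out of 184186 barcodes with at least 1 UMI. Each UMI stands for 1 RNA molecule caught in a droplet, and the barcode names the droplet. The members were selected on their total UMIs alone, below the limit of 1331 UMIs above which 1600 barcodes were taken as called cells. They were compared with these called cells and with 20532 barcodes of 10 to 50 UMIs, which are commonly taken as a measure of the free RNA of a suspension. The library came from the blood of 1 mouse of the autochthonous SCLC model, in which Rb1 and Trp53 are conditionally deleted in the lung by intratracheal Adeno-Cre virus on a C57BL/6 background. The mouse was in the vehicle group and received PBS every 3 days. From 150 µl of blood the red cells were lysed for 10 min in 850 µl of ACK buffer, and T cells were then enriched by negative selection with a Pan T Cell kit. The combination-treated mouse was not analysed here. The age and sex of this mouse itself are not given. With 1 library there was no replicate error, no test was run, and every interval given is an exact 95% interval that covers counting error only.

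Blood platelets are small fragments shed by megakaryocytes. They have no nucleus and carry a limited set of RNAs left from the parent cell, among them those of the αIIbβ3 integrin, of the GPIb-IX-V receptor for von Willebrand factor and of chemokines stored in α-granules. They bind readily to leukocytes and are a common companion of cells isolated from blood. A platelet holds far less RNA than a lymphocyte does, and it has no nucleus to make more.

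The members held 721538 UMIs, 5.61% of all 12855001 UMIs of the library. Their median was 293 UMIs per barcode (quartiles 235 and 425) and 158 genes. The called cells held 7974264 UMIs with a median of 3934.5 UMIs and 1807 genes, and the barcodes of 10 to 50 UMIs held 833730 UMIs with a median of 43. A further 43155 barcodes of 51 to 199 UMIs lay between the members and the latter. In total UMIs alone, the members thus lay between a much larger body of shallow barcodes and the called cells.

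Because platelet genes led the members, the 300 bases around the start sites of Pf4 and Ppbp are shown. Pf4 (platelet factor 4) and Ppbp (pro-platelet basic protein) encode chemokines of the platelet α-granule, and their genes are neighbours on chromosome 5. The sequences run from 250 bases before to 50 bases after the start site on the plus strand, in RefSeq's annotation of GRCm38.p6, at chr5:90772185-90772484 for Pf4 and chr5:90768268-90768567 for Ppbp. Capitals mark matches to 2 motifs known from megakaryocyte genes, a GATA motif (AGATAA or AGATAG or TGATAA or TGATAG) and an ETS motif (CCGGAA or CAGGAA), searched on both strands.
Pf4: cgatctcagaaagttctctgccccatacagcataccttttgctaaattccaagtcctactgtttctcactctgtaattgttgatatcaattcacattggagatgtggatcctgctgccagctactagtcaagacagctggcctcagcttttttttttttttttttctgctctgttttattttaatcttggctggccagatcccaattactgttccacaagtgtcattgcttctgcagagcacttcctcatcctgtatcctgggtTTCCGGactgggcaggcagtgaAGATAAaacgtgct
Ppbp: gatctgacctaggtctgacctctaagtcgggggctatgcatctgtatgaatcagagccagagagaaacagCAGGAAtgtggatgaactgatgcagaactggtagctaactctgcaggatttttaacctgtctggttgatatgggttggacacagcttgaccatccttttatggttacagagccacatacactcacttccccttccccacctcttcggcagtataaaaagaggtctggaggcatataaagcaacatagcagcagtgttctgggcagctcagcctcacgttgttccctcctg
The Pf4 window held 1 match of each motif and the Ppbp window 1 ETS match. Of the 12 genes of the platelet list with a promoter in the table, 5 held a GATA match (41.7%), against 29.8% of all 32851 promoters of this length. An ETS match was held by 6 of the 12 (50%), against 41.4% of all and 55.3% of the promoters of all genes compared. Among the 551 promoters of genes that were at least 2-fold higher in the members than in the called cells, the GATA share was 23.4%, close to the 22.0% of the 7678 promoters of all genes compared, and the ETS share was 49.0%, below the 55.3% of the latter. A match of letters is not a binding site.

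As a ratio of rates, platelet RNA was the largest difference among the gene lists between the members and both other pools. In share of UMIs the ribosomal protein genes differed more, as given below. The platelet list of 15 genes made up 564 of every 10000 UMIs of the members (558 to 569), 5.04 in the called cells (4.88 to 5.20) and 19.5 in the barcodes of 10 to 50 UMIs (18.5 to 20.5). The rate in the members was 112 times that in the called cells (108 to 116) and 28.9 times that in the shallowest pool (27.5 to 30.4). As a mean over barcodes the ratio to the called cells was 55.0, and scaled to the median ratio of all genes it was 322. The RNA was spread over the barcodes, since 1622 of the 1908 members held at least 1 UMI of the list (85.0%) and the member with most of it held 0.352% of the list's UMIs. All 15 genes were at least 2-fold higher in the members than in the called cells, where 7.45% of the 9692 genes compared were that much higher and 71% were that much lower. They were also at least 2-fold higher than in the barcodes of 10 to 50 UMIs, where 24.3% of 3142 genes were higher and 28% lower. A gene was compared when both pools together held at least 50 of its UMIs.

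Among the α-granule chemokines, Ppbp was counted at 65.8 UMIs per 10000 in the members, 0.54 in the called cells and 2.13 in the barcodes of 10 to 50 UMIs. Pf4 was counted at 70.1, 0.67 and 5.17 UMIs per 10000. Of the adhesion receptors, the GPIb-IX subunit Gp9 reached 27.3 UMIs per 10000 in the members against 0.19 in the called cells, and Gp1bb reached 18.3 against 0.11. Itga2b, the αIIb chain of the fibrinogen receptor, was at 35.5 against 0.26. Its partner Itgb3 was at 16.7 against 0.48 and had the lowest ratio of the list, 34.9. A UMI of Itgb3 was found in 15.9% of the called cells. The collagen receptor Gp6 and the podoplanin receptor Clec1b were 113 and 92.4 times higher than in the called cells. The gene of the list with most UMIs was Nrgn (neurogranin, a calmodulin-binding protein) with 9326 UMIs, found in 1543 members. The order of these levels compares UMI tags, which count molecules and were not divided by gene length.

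The wider set of platelet adhesion and granule genes followed the same pattern, and shares 10 of its 18 genes with the platelet list. Of the 18, 16 had enough UMIs to be compared. All 16 were at least 2-fold higher in the members than in either other pool, with a median ratio of 113 to the called cells. Of all genes compared, 7.45% were that much higher than in the called cells and 24.3% than in the barcodes of 10 to 50 UMIs. Von Willebrand factor (Vwf) had 484 UMIs in the members and 42 in the called cells, coagulation factor V (F5) 698 and 68, and thrombospondin 1 (Thbs1) 1411 and 147. P-selectin (Selp), which moves to the surface of activated platelets, had only 59 UMIs, found in 52 members. Srgn (serglycin), the proteoglycan core of secretory granules in many blood cells, had the lowest ratio at 6.59. Sparc had no UMI in any of the 3 pools, and Timp3 had 4 UMIs in the members and none in the others.

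Among the genes with the highest ratios to the called cells were, from outside these lists, Gm48905, Clu, Rhoj, Mpig6b, Myl9, Clca3a1, Ly6g6c and Cavin1, with ratios from 166 to 192, and Gp1bb of the platelet list at 162. Clusterin (Clu), a secreted chaperone of platelet granules, had 2573 UMIs in 1133 members against 148 UMIs in the called cells. The myosin light chain Myl9 had 3218 UMIs against 206, and Mpig6b, an inhibitory receptor of megakaryocytes and platelets, had 765 against 45. Against the barcodes of 10 to 50 UMIs, the highest ratios belonged to genes with no UMI there. Ptgs1, the cyclooxygenase that starts thromboxane synthesis, had 277 UMIs in the members and was at least 107-fold higher, taking 3 UMIs over the pool as the limit that a count of 0 allows. Mrvi1, Pde5a and Gnaz were at least 72.8-, 58.5- and 55.5-fold higher on the same footing.

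**Figure D1:**
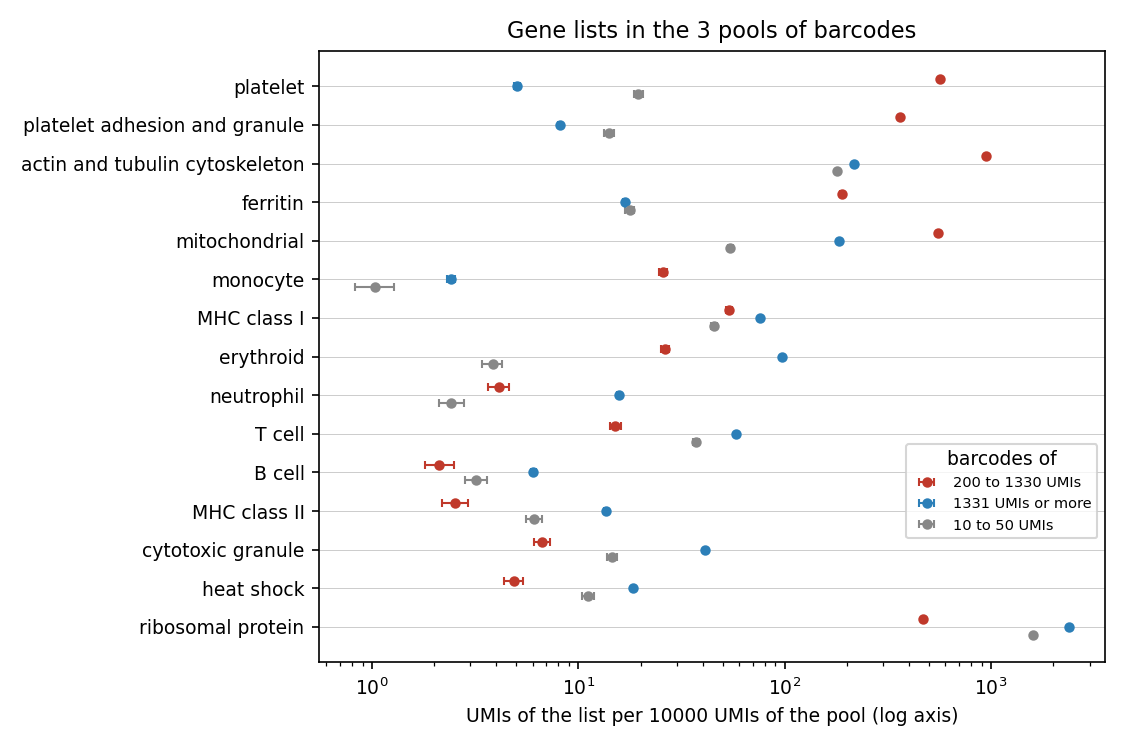
UMIs of 15 gene lists per 10000 UMIs of the pool (log axis), in the barcodes of 200 to 1330 UMIs (red), of 1331 UMIs or more (blue) and of 10 to 50 UMIs (grey), with exact 95% Poisson intervals. The platelet, cytoskeleton, ferritin and mitochondrial lists lay highest in the barcodes of 200 to 1330 UMIs, while the ribosomal protein and T cell lists lay lowest there. Without the 198 barcodes of 20% or more mitochondrial RNA, the mitochondrial share of the former was 1.59%, below the 1.83% of the barcodes of 1331 UMIs or more.

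Shares of barcodes were compared after each was thinned to 200 UMIs, so that the deeper called cells had no advantage. At that depth Pf4 was found in 61.2% of the members (59.0% to 63.4%) and in 1.5% of the called cells (0.963% to 2.22%). Ppbp was found in 55.5% and 1.13%, Nrgn in 77.3% and 2.44%, Gng11 in 62.6% and 1.56%, and Itga2b in 44.6% and 0.875%. Without thinning, at median depths of 293 and 3934.5 UMIs, Pf4 was found in 68.4% of the members and 8.75% of the called cells. T cells should lack these genes, and the members lay far above the share in the called cells. That share is not a platelet-free background, since 18 of the 1600 called cells held the platelet list at 1% or more. The T cell gene Cd3e went the other way at 200 UMIs, with 2.57% of the members (1.91% to 3.38%) and 12.6% of the called cells (11.04% to 14.4%). Without thinning Cd3e was found in 76.3% of the called cells, whose sample is labelled T lymphocytes, and in 4.61% of the members.

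Most genes made up a smaller share of UMIs in the members than in the called cells. The median ratio of all 9692 genes to the called cells was 0.347, or -1.53 on the log2 scale, and that of the 3142 genes compared with the barcodes of 10 to 50 UMIs was 0.745, or -0.43. Relative to these medians, 1871 genes were at least 2-fold higher and 1598 lower than in the called cells, in place of 722 and 6881. On that scale 899 genes were higher and 430 lower than in the barcodes of 10 to 50 UMIs, in place of 763 and 881. Ratios below are given as measured, with this shift beside them where it matters.

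The cytoskeleton and iron storage genes were also higher in the members. The list of 10 genes of actin, actin-binding proteins, myosin and tubulin, which shares Tubb1 with the platelet list, was at 944 UMIs per 10000 against 218 in the called cells, and 7 of its 10 genes were at least 2-fold higher, beside 7.45% of all genes compared, among them the platelet tubulin Tubb1 (96.5 times), Myl6 (10.8 times), Actg1 (8.52 times) and Actb (4.42 times). Against the barcodes of 10 to 50 UMIs 9 of the 10 were higher, beside 24.3% of all genes compared. The thymosins parted. Tmsb4x, the main actin-sequestering peptide of platelets, gave 405 of the list's 944 UMIs per 10000 in the members, against 50.2 in the called cells and was found in all 1537 members in which the platelet list made up 1% or more and mitochondrial RNA less than 20% of the UMIs, called members with platelet RNA below. Its relative Tmsb10 was at 17.8 against 71.0, a ratio of 0.251 that lay below the median of all genes. The ferritin chains Fth1 and Ftl1 were 11.1 and 11.4 times higher than in the called cells. Of the MHC class I list, only B2m lay above the called cells (1.61 times). H2-D1 had a ratio of 0.738, over the median of all genes, while H2-K1, H2-Q7, Tap1 and Tap2 had ratios of 0.181 to 0.290. B2m is the light chain of MHC class I.

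Ribosomal protein genes gave 4.67% of the UMIs of the members, 23.8% of those of the called cells and 16.0% of those of the barcodes of 10 to 50 UMIs. Of the 85 genes, 82 had enough UMIs and all 82 were at least 2-fold lower than in the called cells, beside 71% of all genes compared. Of 79 genes, 78 were that much lower than in the barcodes of 10 to 50 UMIs, beside 28% of all genes compared. The median ribosomal ratio was 0.539 times the median of all genes in the first comparison and 0.372 times in the second. Malat1, a nuclear long non-coding RNA, took 0.511% of the members' UMIs, 1.13% of those of the called cells and 0.837% of those of the shallowest pool. Its ratio to the called cells, 0.450, lay above the median of all genes. Gm42418, a gene model that overlaps ribosomal RNA, took 9.64% in the members, 1.99% in the called cells and 31.7% in the barcodes of 10 to 50 UMIs.

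T cell RNA was low in the members. The 12 genes of the T cell list were together at 15.1 UMIs per 10000 (14.2 to 16.0), against 58.3 in the called cells and 37.2 in the barcodes of 10 to 50 UMIs. The ratio to the called cells was 0.259 (0.243 to 0.275), and 0.745 when scaled to the median of all genes. Of the 12 genes, 11 were at least 2-fold lower than in the called cells, where 71% of all genes were, and 7 were that much lower than in the barcodes of 10 to 50 UMIs, where 28% were. T cell RNA was a smaller share of the members' UMIs than of either other pool's. Thy1 had the lowest ratio to the called cells (0.114) and Trac, the constant part of the TCR α-chain, the highest (0.507). The homing genes Ccr7, S1pr1, Klf2 and Il7r were at least 2-fold lower than in both pools, as were 71% and 28% of all genes compared with each. The cytotoxic granule genes had ratios of 0.0758 (Gzma) to 0.179 (Ccl5), and the MHC class II genes of 0.168 to 0.251. The T cell transcription factors had a median ratio of 0.334, close to that of all genes.

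The 10 genes with the lowest ratios to the called cells all had no UMI in the members. They met the minimum of 50 UMIs through the called cells alone. Of all genes compared, 71% were at least 2-fold lower, and the median ratio was 0.347. Tbx21, the transcription factor T-bet of cytotoxic and Th1 cells, had 303 UMIs in the called cells and none in the members, at least 9.14-fold lower with 3 UMIs over the members as the limit. Timm17a, a mitochondrial import protein, had 318 UMIs in the called cells and was at least 9.59-fold lower, and Cstb and Mrpl17 were at least 8.75- and 8.02-fold lower. Against the barcodes of 10 to 50 UMIs the lowest ratio was that of Hist1h1b, a linker histone, with 6 UMIs in the members and 63 in the shallower pool (0.110). Hist1h4d, a core histone gene, had 15 UMIs against 139.

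Of the other lineages, the lists were carried by few genes or by single barcodes. The erythroid list was at 26.2 UMIs per 10000 in the members and 97.0 in the called cells, a ratio of 0.270 (0.258 to 0.283), or 0.778 when scaled to the median of all genes, and at 6.82 times its rate in the barcodes of 10 to 50 UMIs. One member of 1142 UMIs held 861 of the 1890 erythroid UMIs (45.6%), with 553 UMIs of Hbb-bs and 139 of Hba-a1, and 10 members held 61.0%. Without those 10 the ratio to the called cells was 0.106. No called cells were left out, though Hbb-bs was found in only 2.31% of them, so this ratio does not compare like with like. Slc4a1, the band 3 anion exchanger of red cells, had no UMI in the members, and Alas2, the first enzyme of haem synthesis in red cells, had 2.

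Haemoglobin was not all in these few barcodes. Hba-a1 was found in 257 members (13.5%), of which 247 were members with platelet RNA, while Hba-a2 was found in 18 and Hbb-bs in 48. In the members with platelet RNA, Hba-a1 had 373 UMIs and Hba-a2 had 13. In the member richest in haemoglobin the same genes had 139 and 124 UMIs. Both genes encode α-globin from near-identical copies, as do Hbb-bs and Hbb-bt for β-globin, so the split of UMIs between the copies is uncertain. After thinning to 200 UMIs, Hba-a1 was found in 9.01% of the members (7.77% to 10.4%) and 1.75% of the called cells (1.17% to 2.52%).

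The neutrophil list was at 4.12 UMIs per 10000 in the members and 15.7 in the called cells, a ratio of 0.262, or 0.754 when scaled to the median of all genes. The median ratio over its 8 genes compared was 0.371, 1.07 times that of all genes, so the sum and the median of the list lay on different sides of it. A single member of 1057 UMIs held 253 of the 297 UMIs (85.2%), 67 of them from S100a8 and 143 from S100a9, the subunits of calprotectin. Without the 10 members with most UMIs of the list, the ratio was 0.016. No called cells were left out, though S100a8 was found in only 1.5% of them, so this ratio does not compare like with like. S100a8 was found in 9 of 1908 members (0.472%). Of the markers given for these barcodes, Ppbp and Pf4 were thus spread over most members, Hba-a1 over 13.5% of them, and Hbb-bs and S100a8 were held mostly by 1 barcode each.

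The monocyte list was 10.7 times higher than in the called cells (9.99 to 11.4), but 2 of its 8 genes held nearly all its UMIs, and the median ratio over the 6 genes compared was 0.182. Lyz2 (lysozyme) had 1446 of the list's 1848 UMIs, and F13a1, the A chain of coagulation factor XIII that platelets also carry, had 396. Of the Lyz2 UMIs, 1429 lay in members with platelet RNA, over 838 barcodes with at most 7 UMIs each. Csf1r, Fn1, Adgre4 and Ear2 had no UMI in the members, Cd68 had 1 and Ccr2 had 5. On the basophil list, Gata2, a transcription factor that megakaryocytes share, had 37 of the 46 UMIs, and Mcpt8, Prss34 and Fcer1a had none. The B cell list was at 2.12 UMIs per 10000 against 6.03 in the called cells, led by Bank1 (44 UMIs) and Ighm (40), and Cd79a had 20. The NK cell list had 9 UMIs in all, with Ncr1, Klrb1c and Klra8 at 0. The plasma cell list had 9 UMIs with Jchain at 0, and the plasmacytoid dendritic cell list had 26 with Siglech at 0. Of the endothelial list, Cdh5, Cldn5 and Ptprb were at 0 and Kdr had 3 UMIs. Tumour RNA was not detectable at this depth, as 7 of the 8 SCLC genes, Insm1 and Dll3 among them, had no UMI in the members and Ncam1 had 2 in 1 barcode.

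The stress-related lists were compared through their median genes and their sums. The heat shock list was at 4.88 UMIs per 10000 against 18.5 in the called cells, with a median gene ratio 0.925 times that of all genes, and the immediate early list was at 1.82 against 7.97, with a median 0.977 times that of all genes. Against the barcodes of 10 to 50 UMIs, the median ratio of the immediate early genes was 0.580 times that of all genes, and the 3 genes compared were all at least 2-fold lower, beside 28% of all genes compared. Of the 8 haem synthesis genes 6 were 2-fold lower than in the called cells and none was 2-fold higher, shares close to the 71% and 7.45% of all genes compared.

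Single members fell into groups by their platelet and mitochondrial shares. The limits of these groups, 1% of UMIs for the platelet list and 20% for mitochondrial RNA, were set after the values had been seen, and the groups are a description. In 1537 members (80.6%, 78.7% to 82.3%) the platelet list made up 1% or more and mitochondrial RNA less than 20%. Mitochondrial RNA made up 20% or more in 198 members (10.4%, 9.04% to 11.8%), and 173 members (9.07%) met neither limit. Few barcodes lay near the platelet limit, with 9 members at 0.5% to 1%, 23 at 1% to 2%, 286 without any UMI of the list and 1259 at 5% or more. The mitochondrial limit was less clear-cut, with 37 members at 10% to 20%, 28 at 20% to 30% and 124 at 50% or more. Only 28 members passed both limits and were counted as mitochondrial.

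**Figure D2:**
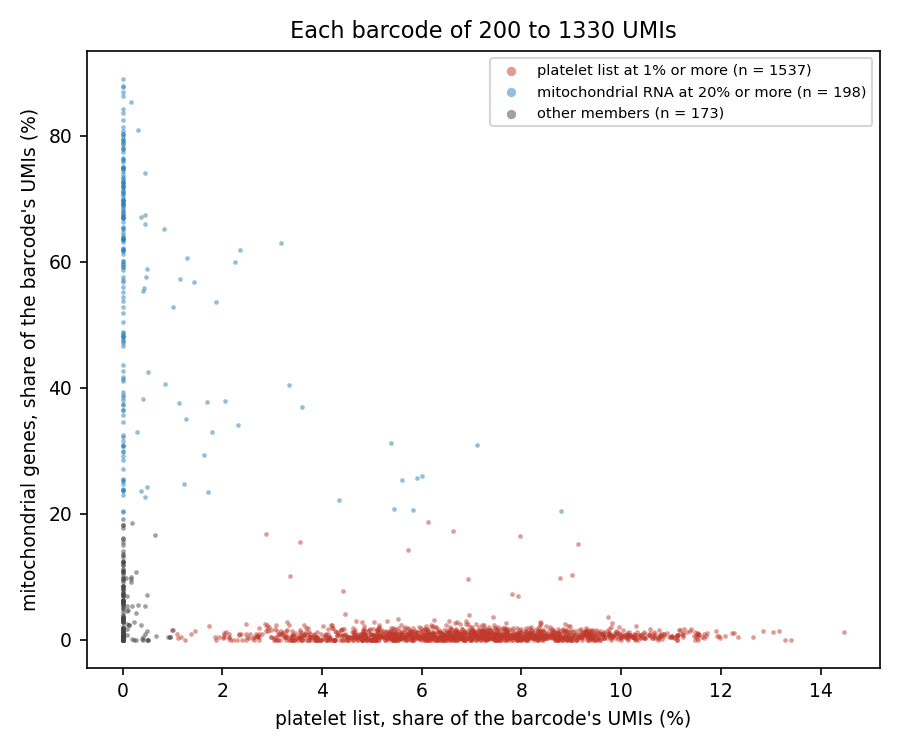
Share of UMIs from the platelet list (horizontal axis, %) and from mitochondrial genes (vertical axis, %) in each of the 1908 barcodes of 200 to 1330 UMIs, 1 point per barcode, coloured by group. The 1537 barcodes with platelet RNA lie along the bottom with a median platelet share of 6.99%, and most of the 198 mitochondrial barcodes stand along the left edge with a platelet share of 0.

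The members with platelet RNA had a median of 296 UMIs and 162 genes and held 77.0% of all members' UMIs. Their platelet share ran from 1% to 14.5% with a median of 6.99%. Mitochondrial RNA gave 0.836% of their UMIs, the T cell list 0.0808% and Malat1 0.147%, all lower than in the called cells. The 12 genes with the highest ratio to the other members had no UMI in any of these, and the following were picked from them after their values were seen. They were ranked among genes with at least 50 UMIs in the members with platelet RNA alone. A count of 0 elsewhere thus put a gene first, and it is no separate finding. The serotonin transporter Slc6a4, by which platelets take up serotonin, had 426 UMIs, Srxn1 (sulfiredoxin) 360, the tetraspanin Cd151 328, the guanylate cyclase subunit Gucy1b1 217 and the ATP receptor P2rx1 181.

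The mitochondrial members were shallow, with a median of 237.5 UMIs and 68.5 genes, and mitochondrial RNA reached 89.1% of the UMIs of 1 barcode, with a median of 60.1%. In 152 of the 198 no platelet UMI was found. Mitochondrial RNA made up 55.2% of all their UMIs, which lowers the share of every other gene. Of their UMIs the T cell list made up 0.130%, the T cell transcription factors 0.236%, Malat1 0.665% and Gm42418 10.5%. In the called cells these shares were 0.583%, 0.573%, 1.13% and 1.99%. The make-up of their mitochondrial RNA was close to that of the called cells. mt-Co1, a subunit of cytochrome c oxidase, gave 20.2% of it in these members, 19.97% in the called cells and 32.7% in the members with platelet RNA. mt-Nd4l gave 6.61%, 6.60% and 2.22%, mt-Atp8 7.64%, 7.25% and 3.25%, and mt-Cytb 12.2%, 12.3% and 7.84%. Mitochondrial RNA of the members with platelet RNA thus differed from both in its make-up, with 4643 UMIs behind it.

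The remaining 173 members were the deepest, with a median of 607 UMIs and 331 genes. Malat1 made up 2.22% of their UMIs, against 1.13% in the called cells, and ribosomal protein genes 9.26%, against 23.8%. The T cell list was at 0.504%, near the 0.583% of the called cells. Besides the haemoglobin and S100a8/S100a9 of the single barcodes described above, the genes with the highest ratio to the other members were Nedd9, Foxn3, Dock2, Aff3, Arhgef18, Maml2, Bach2 and Arhgap15. Dock2, a guanine nucleotide exchange factor of lymphocyte migration, had 483 UMIs here and 112 in all other members, 23.2 times the rate (18.9 to 28.8). Bach2, a transcription factor of resting lymphocytes, had 161 against 47.

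The members differed little from the barcodes just below their lower limit. In the 344 barcodes of 180 to 199 UMIs the platelet list made up 4.31% and mitochondrial RNA 9.90%, and in the 290 members of 200 to 219 UMIs they made up 4.53% and 10.3%. At the upper limit, the 30 members of 1181 to 1330 UMIs held 1.91% of platelet UMIs and the 19 called cells of 1331 to 1480 UMIs held 2.09%. Ribosomal protein genes were apart there, at 3.72% of the former and 12.3% of the latter, and Malat1 was at 2.10% and 1.55%. In wider bins the gap was smaller. Ribosomal protein genes made up 6.02% of the UMIs of the 69 members of 1000 to 1330 UMIs. In the 60 called cells of 1331 to 1699 UMIs they made up 8.87%. Malat1 went the other way in these bins, at 1.64% and 2.51%.

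Along the depth of the barcodes the platelet share rose and fell again. It was 0.194% of UMIs at 30 to 50 UMIs, 2.21% at 100 to 149, 4.71% at 200 to 249 and 7.12% at 400 to 499, and it came down to 2.84% at 1000 to 1330 UMIs and 0.0178% in cells of 5000 or more. The share of barcodes with the platelet list at 1% or more was 44.1% at 100 to 149 UMIs and 92.3% at 400 to 499, so barcodes of this kind continued below the lower limit. The mitochondrial share was highest at 200 to 249 UMIs, with 11.1%, where 18.2% of the barcodes were mitochondrial by the 20% limit.

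Counted per barcode, ribosomal protein and Gm42418 UMIs stayed nearly level while platelet UMIs grew. Over the 6 depth bins from 100 to 499 UMIs, ribosomal protein genes lay between 13.2 and 16.1 UMIs per barcode, Gm42418 between 30.04 and 35.8 and the T cell list between 0.265 and 0.407. From the first of these bins to the last the platelet list went from 2.66 to 31.6 UMIs per barcode. Above 800 UMIs the order changed, as the T cell list rose from 1.73 UMIs per barcode at 800 to 999 UMIs to 4.77 at 1000 to 1330 and the ribosomal protein genes from 31.5 to 69.8, while the platelet list fell from 50.6 to 32.9.

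**Figure D3:**
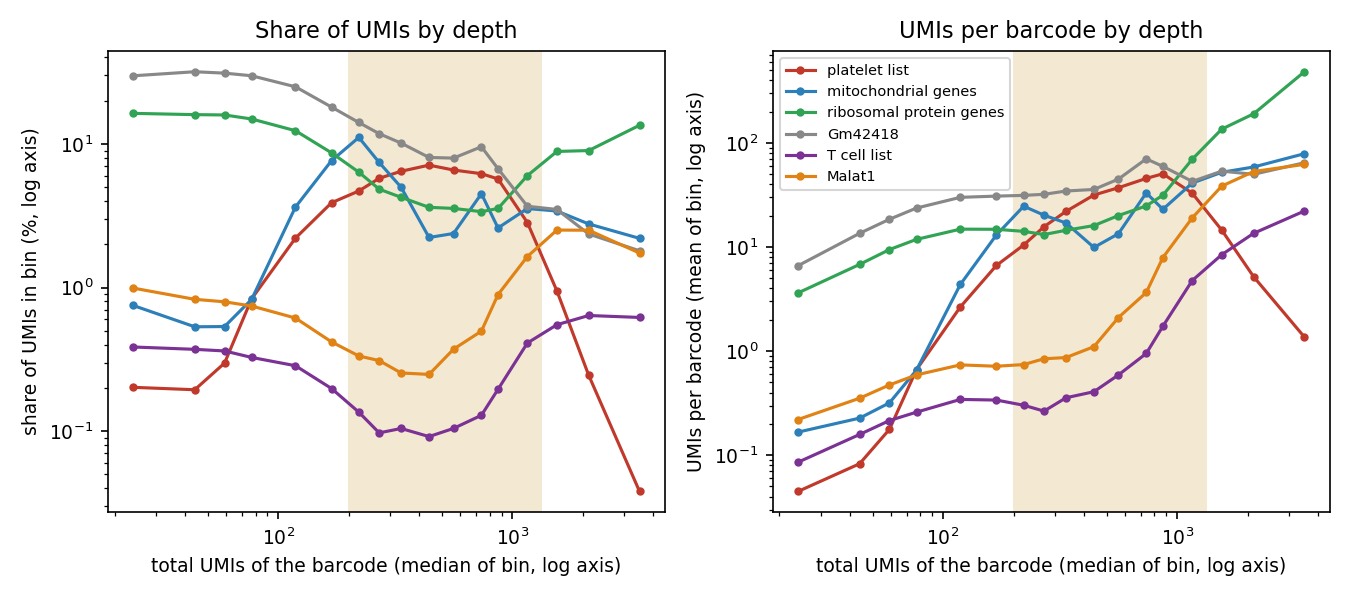
Share of UMIs (left, %) and UMIs per barcode (right), both on log axes, against the total UMIs of the barcode (median of each depth bin, log axis), for 6 gene groups, in barcodes of 10 to 4999 UMIs. In the shaded range of 200 to 1330 UMIs the platelet list peaked at 7.12% of UMIs, and the ribosomal protein and Gm42418 UMIs per barcode stayed nearly level from 100 to 499 UMIs.

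Within the members with platelet RNA, some genes changed in share with depth. The 246 of them with 500 or more UMIs were set against the 788 with fewer than 300 UMIs. Of 783 genes that met the same minimum over the 2 sets, 109 were at least 2-fold higher in the deep and 73 in the shallow barcodes, with a median ratio of 1.21. The 10 highest ratios ran from 4.75 to 7.21 and included 4 tubulin genes, Tuba1a at 6.54 (4.58 to 9.59), Tubb2a at 6.19 (5.03 to 7.69), Tubb4b at 5.25 (3.78 to 7.44) and Tuba1c at 5.18 (2.75 to 10.6). The others were Lmna, which encodes the nuclear lamins A and C, at 7.21 (4.003 to 14.1), and Dapk1, Blvrb, Nlrx1, Lpin2 and Igtp. Tubb2a was found in 136 of the 246 deep barcodes and in 75 of the 788 shallow ones. Of the platelet list, Tubb1 (2.44), Gp1ba (2.05) and Ppbp (1.89) had a larger share in the deep barcodes, while the intervals of Gp9, Gp1bb and Gng11 included 1 and Nrgn was lower (0.825, 0.783 to 0.868). The 10 lowest ratios were those of Dock2 (0.2499), Rack1 (0.312), Arhgap15 (0.329), Ptprc (0.334), Fxyd5 (0.339), Ets1 (0.348), Shisa5 (0.349), Malat1 (0.364), Ccl5 (0.370) and Gm2682 (0.372). These ratios were taken from the counts that also set the depth, and they carry no test.

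**Figure D4:**
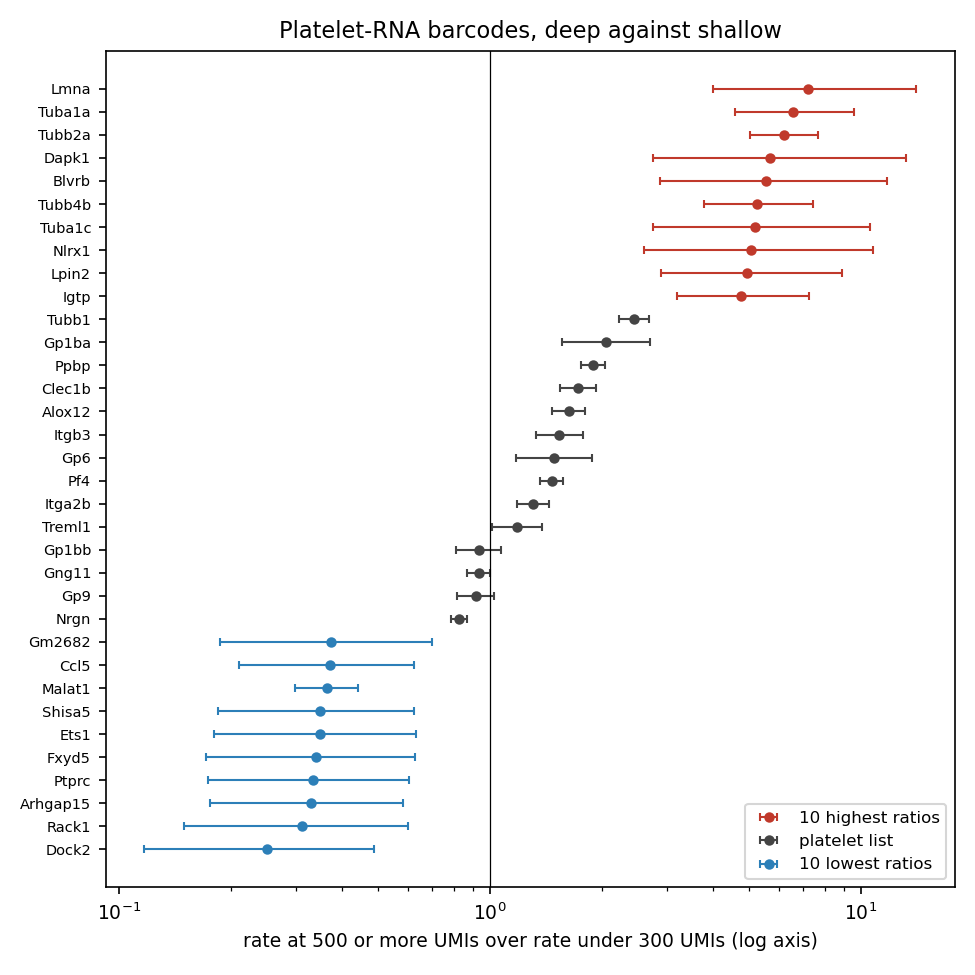
Ratio of the UMI rate in platelet-RNA barcodes of 500 or more UMIs to that in those under 300 UMIs (log axis), for the 10 highest, the 10 lowest and 14 of the 15 genes of the platelet list, with exact 95% intervals. Of the 10 highest 4 are tubulin genes, Tubb1 at 2.44 leads the platelet list, and Nrgn at 0.825 is its lowest.

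The TCR library was read from the same droplets but counted separately, and its contigs played no part in choosing the members. A contig is an assembled TCR transcript. Any contig was found in 146 of the 1908 members (7.65%, 6.499% to 8.94%), in 1246 of the 1600 called cells (77.9%, 75.8% to 79.9%) and in 754 of the 20532 barcodes of 10 to 50 UMIs (3.67%, 3.42% to 3.94%). A productive contig of high confidence was found in 15 members (0.786%, 0.441% to 1.29%), in 989 called cells (61.8%, 59.4% to 64.2%) and in 4 barcodes of 10 to 50 UMIs (0.0195%). Without the limit on confidence, 129 of the 168 contigs of the members were productive (76.8%), against 71.3% of those of the called cells and 76.9% of those of the shallowest pool. Of the 168, 135 rested on 1 UMI (80.4%), against 19.5% of the contigs of the called cells and 94.0% of those of the shallowest pool.

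The groups of members differed in this readout too. A productive contig of high confidence was held by 14 of the 173 members that met neither limit (8.09%, 4.49% to 13.2%), by 1 of the 1537 with platelet RNA (0.0651%, 0.00165% to 0.362%) and by none of the 198 mitochondrial members, which allows a share of up to 1.52% at 3 counts and of 1.85% by the exact interval. Any contig was found in 25.4% (19.1% to 32.6%), 5.92% (4.79% to 7.22%) and 5.56% (2.81% to 9.72%) of them. With depth, the share with a productive contig of high confidence was 0.158% at 200 to 249 UMIs and 13.04% at 1000 to 1330 UMIs, which held 9 of the 15.

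**Figure D5:**
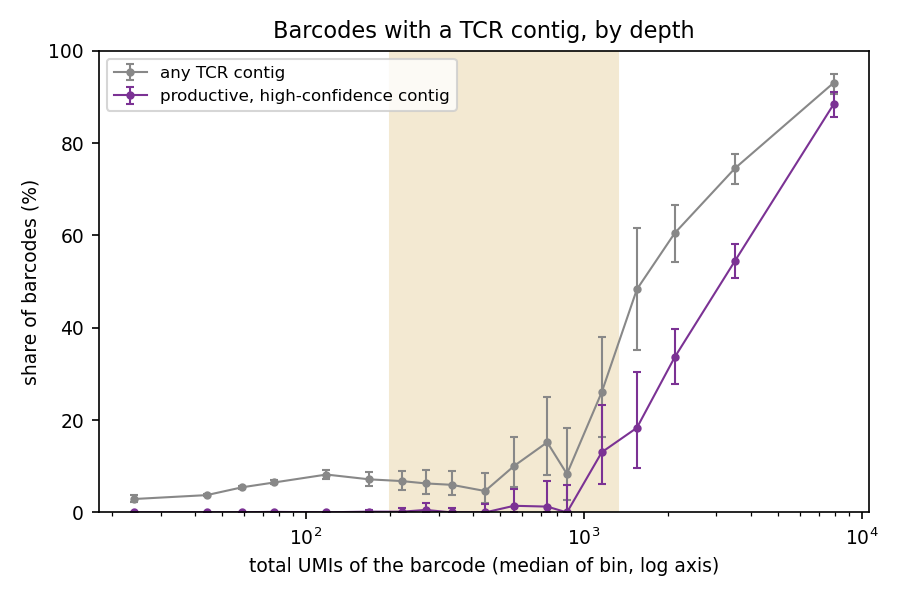
Share of barcodes (%) with any TCR contig (grey) and with a productive contig of high confidence (purple), against the total UMIs of the barcode (median of each depth bin, log axis), with exact 95% binomial intervals. In the shaded range of 200 to 1330 UMIs the productive share stays near 0 until the last bin, where it is 13.04%, and it reaches 88.5% in cells of 5000 or more.

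Of the 15 members with a productive contig of high confidence, 11 were called cells in the authors' contig table. Their CDR3, the stretch of the chain that meets the antigen, shows which of them belonged together. The members of 1089 and 1165 UMIs carried the same TRA chain, joined from TRAV6N-5 and TRAJ12, and the same TRB chain, joined from TRBV16 and TRBJ1-3, and neither chain was found in a called cell. The member of 779 UMIs carried a TRB chain from TRBV13-2 and TRBJ2-7, with 1 UMI, that 5 called cells and 1 other member also carried. The nucleotide sequences of these CDR3, read from the contigs of this mouse and printed in full in lower case with no part marked, were as follows.
TRAV6N-5 and TRAJ12: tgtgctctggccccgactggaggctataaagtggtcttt
TRBV16 and TRBJ1-3: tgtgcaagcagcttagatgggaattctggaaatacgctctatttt
TRBV13-2 and TRBJ2-7: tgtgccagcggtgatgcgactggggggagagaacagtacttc
The pair of members with the shared TRBV16 chain held 7 and 13 UMIs of it, and 12 and 17 UMIs of the T cell list, with ribosomal protein genes at 15.9% and 16.2% of their UMIs. A CDR3 that also occurred in called cells was found for 60 of the 154 contigs of members that had one (39.0%). The only productive contig of high confidence in a member with platelet RNA, a TRA chain from TRAV6N-7 and TRAJ33 with 3 UMIs, lay in a barcode of 263 UMIs with a platelet share of 5.70% and no UMI of the T cell list, and 1 called cell carried the same CDR3.

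Clustering of the members gave 9 clusters at the resolution of 1.0, which separated weakly among the members with platelet RNA. The clearest was a cluster of 206 members led by mt-Nd4l, mt-Nd2 and mt-Atp8, with 50.6% of mitochondrial UMIs. A cluster of 174 members led by Ccl6, S100a9, S100a8 and Ebf1 held 135 of the 173 members that met neither limit and 0.331% of platelet UMIs. Single barcodes made the first 3 of these genes lead it, since 1 member held 17 of the cluster's 21 Ccl6 UMIs, 1 held 143 of its 146 S100a9 UMIs and 1 held 67 of its 69 S100a8 UMIs. A cluster of 222 members led by Tubb2b, Mest and Dnajb4 was among the deepest, with a median of 543.5 UMIs, and had a platelet share of 7.93%. The genes that lead a cluster were used to make it, so they describe it and are no separate finding. No cluster was given a cell type name, and no doublet caller was run on barcodes of this depth.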

How the data were processed

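Gene expression and TCR libraries of 1 vehicle-treated mouse were analysed. The authors ran Cell Ranger (version 4 in the matrix header, GRCm38 in the submitters' processing notes) and deposited a matrix of unnormalized counts (UMIs) for 32285 genes in 300213 barcodes, with no selection of cells, beside a table of TCR contigs with the counts of reads and UMIs behind each. From these counts, UMIs were pooled over barcodes of 200 to 1330, of at least 1331 and of 10 to 50 UMIs. The limit of 1331 is the 99th percentile of the totals of the 3000 deepest barcodes divided by 10. Pooled rates per 10000 UMIs were given exact Poisson intervals, their ratios exact conditional intervals and shares Clopper-Pearson intervals, all at 95%, which cover counting error only. UMIs of a pool come from 1 library, so depth sets precision within it but says nothing of other mice.

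Genes with at least 50 UMIs in the compared pools together were compared, and a 2-fold ratio was counted as higher or lower. Named genes were the 10 highest and 10 lowest ratios of each comparison, without TCR, immunoglobulin, mitochondrial and ribosomal protein genes, all genes of the marker and pathway lists, and leading genes of clusters. Genes that lead a group of members or its deep barcodes were chosen after their values were seen. Those that lead a group needed at least 50 UMIs in that group alone. The members and lists were chosen with earlier results of these data known. Clustering used Scanpy 1.11.5 in Python 3.11.15 (log-normalized counts, 2000 variable genes, 20 components, 15 neighbours). The ratio calculation was tested on simulated data. Promoters came from RefSeq. No columns of other samples were present. Some results on list genes are not reported here.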

Additional observations from a re-analysis of the deposited data

How the results depend on the processing

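The library was 1 mouse, so no replicate could be left out and no value speaks for other mice. No paired analysis was possible because there was 1 group of 1 sample. Alternatives on ribosomal RNA, on scaling to the median gene and on mitochondrial members were chosen after seeing the data. A value was taken as moved when it left its counting interval or, for counts, changed by more than 1.5 times. The platelet ratio to the called cells (112) was 84.8 with a lower limit of 100 UMIs and 104 with 500 UMIs. It was 55.0 as a mean over barcodes, 122 without genes that overlap ribosomal RNA, 322 scaled to the median gene and 120 without members of 20% or more mitochondrial UMIs. In the same order the erythroid ratio (0.270) was 0.181, 0.444, 0.152, 0.294, 0.778 and 0.289, and it was 0.106 without the 10 members richest in the list. The neutrophil ratio (0.262) was 0.175 and 0.653 at the lower limits of 100 and 500 UMIs, 0.0775 as a mean over barcodes, 0.016 without the 10 richest members and 0.754 scaled to the median gene. The T cell ratio (0.259) was 0.345 and 0.375 at those limits, 0.209 as a mean, 0.229 without the 10 richest members, 0.241 without members that had a productive contig of high confidence, 0.282 without ribosomal RNA genes and 0.745 scaled to the median gene. Where the 10 richest members were left out, no called cells were left out. All the ratios given here kept their side of 1.

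Genes higher than in the called cells numbered 722, and 1871 when scaled to the median gene. Genes lower numbered 6881 of 9692 compared, and 4242 of 6027 at a minimum of 200 UMIs. They numbered 4584 at a fold of 3 and 1598 scaled, both of 9692. Against the barcodes of 10 to 50 UMIs, 763 of 3142 were higher, and 347 of 787 at 200 UMIs. The 881 of 3142 lower became 433 of 2558 with a lower limit of 500 UMIs. They became 1951 of 5967 and 199 of 787 at minimums of 20 and 200 UMIs, and 310 of 3142 at a fold of 3. With backgrounds of 5 to 20 and 50 to 100 UMIs they were 453 of 1508 and 1710 of 5491. When scaled they were 430 of 3142, and without ribosomal RNA genes 1411 of 3140. The number of genes compared thus changed along with several of these counts. The share with a productive contig of high confidence (0.786%) was 0.267% and 3.46% at lower limits of 100 and 500 UMIs and 7.65% for any contig. The mitochondrial share (5.53%) was 5.23% and 3.23% at these limits, 6.87% as a mean over barcodes and 1.59% without members of 20% or more. Clusters numbered 3 and 25 at resolutions of 0.5 and 2.0, in place of 9. The cause of these shifts was not tested.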
